A study of Sus scrofa with 4 samples.

Results

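The mitotic spindle, centrosome and cytokinesis genes described here are 38 genes taken by symbol from 29884 rows of 1 pig gene count table. They comprise 12 mitotic kinesins, 14 spindle assembly and microtubule-binding proteins, 3 mitotic kinases, 3 centriole duplication proteins and 6 cytokinesis proteins. The values come from RNA sequencing of ovarian granulosa cells, the somatic cells that surround the oocyte, taken from antral follicles of the pig (*Sus scrofa*). Cells of each follicle were stained for flow cytometry of the cell cycle, and the remaining cells were grouped by their share in G0/G1. The high G0/G1 group and the low G0/G1 group hold 2 libraries each (high replicates 1 and 2, low replicates 1 and 2). No genotype, treatment or time separates the groups. The sources used here give neither the breed and age nor how many animals or follicles went into a library. The libraries are titled High_Q9G (high replicate 1), High_W8G (high replicate 2), Low_S9G (low replicate 1) and Low_W7G (low replicate 2), and the codes, of which W8G and W7G share a letter across the groups, are not explained. Nothing in the labels assigns the libraries to different animals, and p-values therefore measure spread between these samples alone, possibly technical spread. The groups were made from a cell cycle measurement, so lower levels of cell division genes in the high group lie in the direction that the grouping selects.

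The mitotic spindle is a bipolar array of microtubules that separates the chromosomes, and in most dividing animal cells each pole is organised by a centrosome with a pair of centrioles. Kinesins slide, cross-link or depolymerise spindle microtubules, and the polo-like, Aurora and NIMA-related kinases control when the centrosomes mature and separate. After anaphase the central spindle directs a contractile ring, and the daughter cells part at the midbody. Most of these genes are transcribed mainly in late S phase, G2 and mitosis. Granulosa cells divide while the follicle grows and leave the cell cycle as they differentiate. The roles given below were worked out largely in human cells and in other animals.

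Library totals ran from 27442850 to 32674921 counts. Of 16 granulosa cell markers, 15 had a count, and their summed level was 25000 and 19670 CPM (counts scaled to a common library total, after TMM) in high replicates 1 and 2, against 19430 and 17640 CPM in low replicates 1 and 2. INHA added most to their sum in every library, followed by GJA1 and CYP19A3 in high G0/G1 libraries and by INHBB and HSD17B1 in low G0/G1 libraries. Single markers went both ways, with 8 lower and 7 higher estimates and a median log2 fold change of -0.45. At an unadjusted edgeR p under 0.05, 5 were lower (10.8% of all genes tested) and 2 higher (9.92% of all genes tested). FSHR, the receptor of follicle-stimulating hormone, had 22.5 and 26.1 CPM in high G0/G1 libraries, against 81.6 and 85.9 CPM in low G0/G1 libraries. INHBB, an inhibin subunit, had 1492 and 557 CPM in high G0/G1 libraries, against 3654 and 3023 CPM in low G0/G1 libraries. AMHR2 and GJA1 stood the other way. AMHR2 had 89.9 and 56.6 CPM in high G0/G1 libraries, against 30.7 and 26.2 CPM in low G0/G1 libraries. GJA1 had 3533 and 6776 CPM in high G0/G1 libraries, against 1610 and 1615 CPM in low G0/G1 libraries. The part of these marker differences in the values of the 38 genes was not tested. The 12 stromal and smooth muscle markers, each with a count in some library, summed to 124 and 178 CPM in high G0/G1 libraries, against 63.2 and 1637 CPM in low G0/G1 libraries, so low replicate 2 stood apart. The 7 theca markers in the table summed to 159 and 330.0 CPM in high G0/G1 libraries, against 234 and 474 CPM in low G0/G1 libraries. Low replicate 2 stood apart here too, in CYP17A1 (51.5 CPM, against 0.126 to 1.02 CPM in the other libraries), INSL3 (260.1 CPM, against 17.6 to 75.4 CPM) and STAR (39.5 CPM, against 1.33 to 9.63 CPM). PTCH1 did not share this, with 35.1 and 56.9 CPM in high G0/G1 libraries, against 19.3 and 23.6 CPM in low G0/G1 libraries. Over the 7 theca markers, 4 had lower and 3 higher estimates in the high group. The endothelial sum lay between 59.2 and 86.3 CPM, the leukocyte sum between 1.76 and 12.4 CPM, the erythrocyte sum between 9.35 and 27.5 CPM and the oocyte sum between 6.46 and 12.1 CPM over the 4 libraries. Of 12 oocyte markers, 5 were at 0 in every library.

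All 38 genes were tested, and each had a lower estimate in the high group. Their summed level was 1676 and 449 CPM in high G0/G1 libraries, against 3507 and 3333 CPM in low G0/G1 libraries. This was 0.164% and 0.0445% of all counts in high G0/G1 libraries (95% Wilson intervals 0.163 to 0.166% and 0.0438 to 0.0453%), against 0.342% and 0.350% in low G0/G1 libraries (0.340 to 0.344% and 0.348 to 0.352%). The intervals cover counting error only. High replicate 1 held 49.0% and high replicate 2 held 13.1% of the mean low sum. In RNA from a mixture of cells, fewer cells in G2 and mitosis and less RNA per cell cannot be told apart.

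The median log2 fold change over the 38 genes, high minus low, was -1.86, beside -0.01 over the 14352 genes tested, and single genes ranged from -2.48 to -0.79. No gene passed edgeR's quasi-likelihood test at a Benjamini-Hochberg adjusted p under 0.05 over all genes tested, so 0 of the 38 did, against a background of 0%. Adjusted p-values of the 38 ran from 0.175 to 0.467 in that test, and the smallest over all genes was 0.125. At an unadjusted edgeR p under 0.05, 20 of the 38 were lower in the high group, where 10.8% of all genes were lower and 9.92% higher. DESeq2 on the same genes called 18 of the 38 lower at an adjusted p under 0.05, where it called 4.85% of all genes lower and 5.23% higher, and limma-voom called 0 of the 38 (0% of all genes). Both high libraries lay below both low libraries in 37 of the 38 genes. Of all genes tested, 29.8% lay so, 26.8% had both high libraries above both low libraries, and 50.6% had an estimate below 0.

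**Figure D1:**
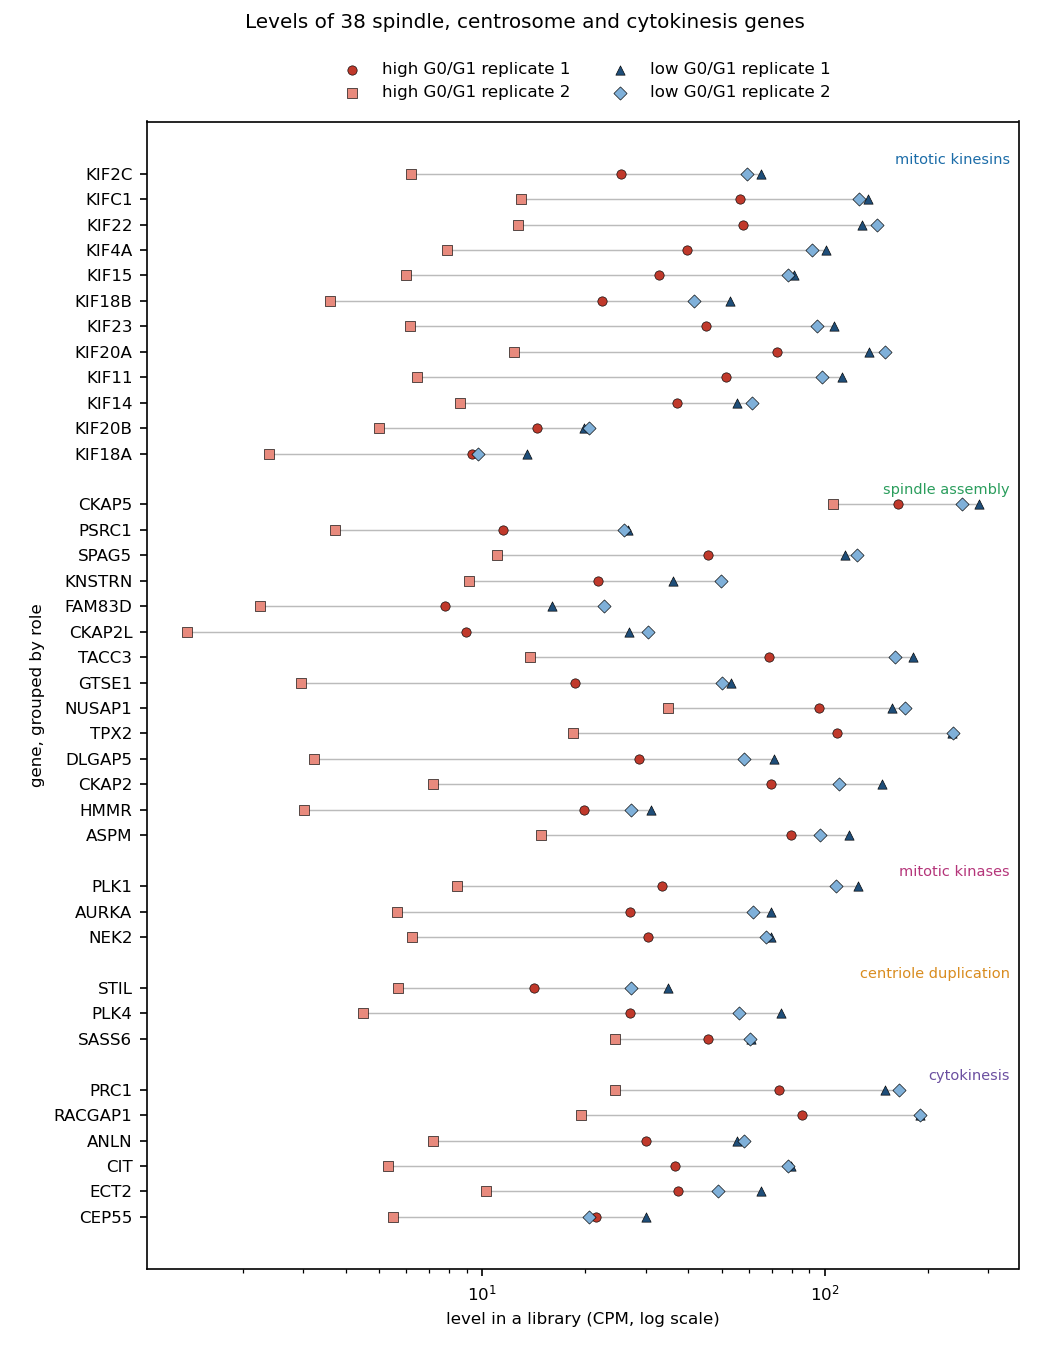
Level of each of the 38 genes in CPM (horizontal log axis), grouped by role, with 1 point per library and a line over the range of the 4 libraries. High replicate 2 is lowest in every gene, and the groups overlap in CEP55 alone.

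The 3 mitotic kinases had a median log2 fold change of -2.01. All 3 were among the 20 genes lower at an unadjusted p under 0.05, where 10.8% of all genes were lower. PLK1, the polo-like kinase needed for mitotic entry, centrosome maturation and cytokinesis, lies on chromosome 3 (22537814 to 22550901, Sscrofa11.1). It had 33.4 and 8.46 CPM in high G0/G1 libraries, against 125 and 108 CPM in low G0/G1 libraries. Both high values lay far below both low values, and 29.8% of all genes tested had both high values below both low values. The mean of the high libraries in PLK1 was 18.0% of the low mean, the lowest share among the 38. The log2 fold change of PLK1 was -2.48 ± 0.65 (SE), with an adjusted p of 0.175 in edgeR's quasi-likelihood test and 0.00249 in DESeq2. Leaving out each library in turn gave PLK1 estimates from -3.79 to -1.80. AURKA, the Aurora kinase of centrosomes and spindle poles, stood at 26.9 and 5.65 CPM in high G0/G1 libraries, against 69.8 and 61.9 CPM in low G0/G1 libraries. Its log2 fold change was -2.01 ± 0.72, with adjusted p-values of 0.216 (edgeR) and 0.0356 (DESeq2). For NEK2, a kinase that loosens the link between centrosomes, the values were 30.4 and 6.25 CPM in high G0/G1 libraries, against 69.9 and 67.2 CPM in low G0/G1 libraries. NEK2 had a log2 fold change of -1.90 ± 0.72 and adjusted p-values of 0.231 (edgeR) and 0.0521 (DESeq2). Low replicates 1 and 2 were close to each other in all 3 kinases, while high replicate 2 lay well under high replicate 1.

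The 3 centriole duplication genes showed a wider spread of estimates than the 3 kinases. PLK4, the polo-like kinase that starts centriole duplication, had 27.04 and 4.49 CPM in high G0/G1 libraries, against 74.4 and 56.3 CPM in low G0/G1 libraries, a log2 fold change of -2.05 ± 0.81 (adjusted p 0.243 in edgeR and 0.0548 in DESeq2). STIL, which binds PLK4 and SASS6 at the forming centriole, had 14.2 and 5.69 CPM in high G0/G1 libraries, against 34.9 and 27.2 CPM in low G0/G1 libraries. STIL averaged 9.92 ± 5.99 CPM in the high group and 31.0 ± 5.42 CPM in the low group (SD, n = 2 each). Its log2 fold change was -1.64 ± 0.48, with adjusted p-values of 0.186 (edgeR) and 0.0268 (DESeq2). SASS6, the protein of the centriole cartwheel, lies on chromosome 4 (117985599 to 118049129) and had the smallest estimate of the 38. It stood at 45.8 and 24.5 CPM in high G0/G1 libraries, against 60.9 and 60.3 CPM in low G0/G1 libraries. The log2 fold change of SASS6 was -0.79 ± 0.34, with adjusted p-values of 0.268 (edgeR) and 0.245 (DESeq2). Both high values of all 3 genes lay below both low values, as in 29.8% of all genes tested.

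Among the 14 spindle assembly and microtubule-binding genes, the median log2 fold change was -1.84. At an unadjusted p under 0.05, 9 of the 14 were lower (10.8% of all genes), and DESeq2 called 8 lower (4.85% of all genes). CKAP5, a microtubule polymerase that also serves interphase microtubules, lies on chromosome 2 (15680723 to 15790580) and had the smallest estimate of these 14 genes. CKAP5 had 163 and 106 CPM in high G0/G1 libraries, against 282 and 252 CPM in low G0/G1 libraries. Its high values lay nearer to each other on the log2 scale than those of any other gene of the 38. The log2 fold change of CKAP5 was -0.99 ± 0.28, with adjusted p-values of 0.181 (edgeR) and 0.0487 (DESeq2). CKAP2L, a spindle protein of dividing cells (chromosome 3, 43736526 to 43772995), lay at the other end. It stood at 8.99 and 1.37 CPM in high G0/G1 libraries, against 26.8 and 30.4 CPM in low G0/G1 libraries, and the lower of its high values rests on 39 counts. Its log2 fold change was -2.46 ± 0.85, with adjusted p-values of 0.210 (edgeR) and 0.0232 (DESeq2).

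SPAG5 and KNSTRN encode partners (astrin and its small subunit) that hold microtubules to kinetochores. SPAG5 had 45.6 and 11.0 CPM in high G0/G1 libraries, against 115 and 124 CPM in low G0/G1 libraries, a log2 fold change of -2.07 ± 0.66 (adjusted p 0.199 in edgeR and 0.0172 in DESeq2). KNSTRN had 21.8 and 9.13 CPM in high G0/G1 libraries, against 36.01 and 49.7 CPM in low G0/G1 libraries, a log2 fold change of -1.47 ± 0.47 (adjusted p 0.199 in edgeR and 0.0457 in DESeq2). For both partners each high value lay under each low value, as in 29.8% of all genes tested. PSRC1, a spindle protein that acts in chromosome alignment, had 11.5 and 3.72 CPM in high G0/G1 libraries, against 26.7 and 25.9 CPM in low G0/G1 libraries, a log2 fold change of -1.79 ± 0.56 (adjusted p 0.195 in edgeR and 0.0295 in DESeq2).

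TPX2, which activates AURKA and helps nucleate microtubules around chromosomes, stood at 108 and 18.4 CPM in high G0/G1 libraries, against 236 and 237 CPM in low G0/G1 libraries. TACC3, which joins CKAP5 on spindle microtubules, stood at 68.8 and 13.8 CPM in high G0/G1 libraries, against 181 and 161 CPM in low G0/G1 libraries. GTSE1, a G2 and S phase protein that restrains the depolymerase KIF2C, stood at 18.6 and 2.95 CPM in high G0/G1 libraries, against 53.3 and 50.04 CPM in low G0/G1 libraries. Their log2 fold changes were -1.90 for TPX2, -2.05 for TACC3 and -2.26 for GTSE1, and DESeq2 called TACC3 (adjusted p 0.0319) and GTSE1 (0.0332) but not TPX2 (0.069). FAM83D, which brings a casein kinase to the spindle, had a log2 fold change of -1.94 and a DESeq2 adjusted p of 0.0337. NUSAP1, a microtubule bundler, had -1.33, with an unadjusted edgeR p of 0.0411 and a DESeq2 adjusted p of 0.0821. DLGAP5 (a stabiliser of kinetochore fibres, -2.01), CKAP2 (-1.74), HMMR (-1.35) and ASPM (a spindle pole protein, -1.19) had adjusted p-values of 0.295 to 0.406 in edgeR's test and were not called by DESeq2. In each of these genes both high libraries were below both low libraries, as in 29.8% of all genes tested.

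**Figure D2:**
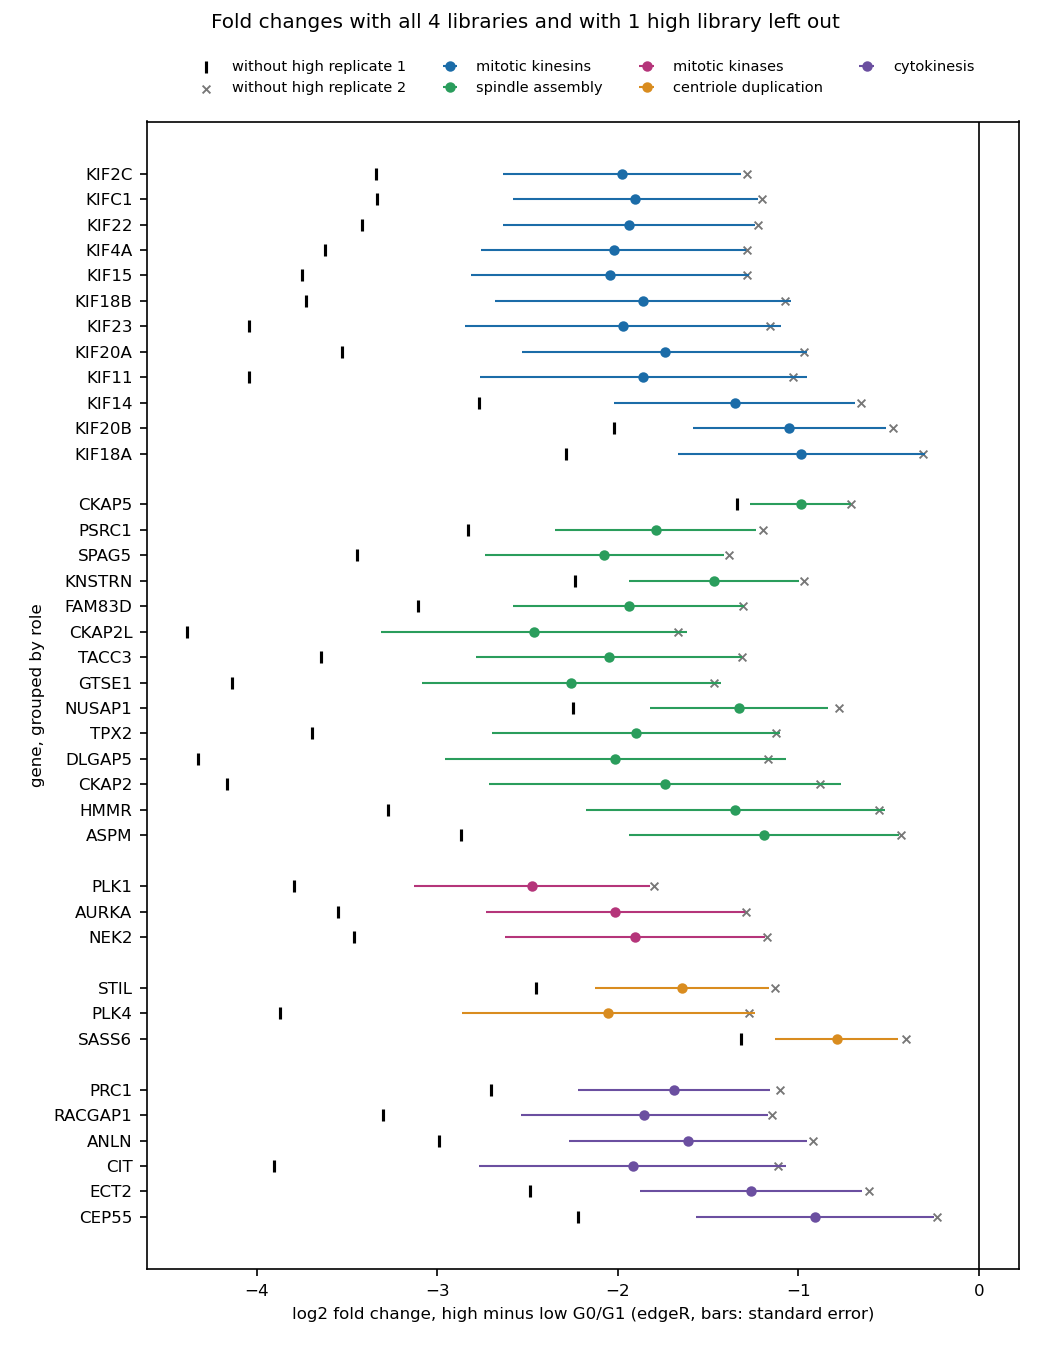
Log2 fold change of the 38 genes, high minus low G0/G1, from edgeR with all 4 libraries (points, bars are the standard error) and with high replicate 1 or high replicate 2 left out (ticks and crosses). The points run from -2.48 to -0.79, and every estimate lies below 0.

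The 12 mitotic kinesins had a median log2 fold change of -1.88. At an unadjusted p under 0.05, 5 of the 12 were lower, where 10.8% of all genes were. DESeq2 called the same 5 (4.85% of all genes lower), namely KIF2C, KIFC1, KIF22, KIF4A and KIF15. KIF2C, which depolymerises microtubules at kinetochores, lies on chromosome 6 (166556765 to 166577904). It had 25.5 and 6.18 CPM in high G0/G1 libraries, against 65.3 and 59.3 CPM in low G0/G1 libraries, a log2 fold change of -1.98 ± 0.66 (adjusted p 0.205 in edgeR and 0.028 in DESeq2). KIFC1, a minus-end-directed motor that focuses spindle poles, had 56.6 and 13.0 CPM in high G0/G1 libraries, against 134 and 126 CPM in low G0/G1 libraries, a log2 fold change of -1.90 ± 0.68 (adjusted p 0.216 in edgeR and 0.037 in DESeq2). In both genes the low libraries lay close together. They lay above each high library, as in 29.8% of all genes tested. KIF22 and KIF4A are chromokinesins, which bind chromosome arms. KIF22 had 57.9 and 12.7 CPM in high G0/G1 libraries, against 129 and 142 CPM in low G0/G1 libraries, a log2 fold change of -1.94 ± 0.70 (adjusted p 0.218 in edgeR and 0.0367 in DESeq2). KIF4A had 39.6 and 7.90 CPM in high G0/G1 libraries, against 101 and 92.1 CPM in low G0/G1 libraries, a log2 fold change of -2.02 ± 0.73 (adjusted p 0.22 in edgeR and 0.0369 in DESeq2). KIF15, which helps to keep the spindle bipolar, had the largest difference of the kinesins. It stood at 32.8 and 5.97 CPM in high G0/G1 libraries, against 81.3 and 78.3 CPM in low G0/G1 libraries, a log2 fold change of -2.04 ± 0.77 (adjusted p 0.23 in edgeR and 0.0441 in DESeq2).

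KIF20A, a motor of the central spindle, stood at 72.7 and 12.4 CPM in high G0/G1 libraries, against 134 and 150 CPM in low G0/G1 libraries. The log2 fold change of KIF20A was -1.74 ± 0.79, with adjusted p-values of 0.283 (edgeR) and 0.107 (DESeq2). KIF11, the motor that pushes the poles apart, stood at 51.6 and 6.42 CPM in high G0/G1 libraries, against 112 and 97.97 CPM in low G0/G1 libraries. KIF23, which forms centralspindlin with RACGAP1, stood at 45.1 and 6.14 CPM in high G0/G1 libraries, against 106 and 94.7 CPM in low G0/G1 libraries. For KIF11 and KIF23 the low values exceeded each high value, as in 29.8% of all genes tested. The log2 fold changes of KIF11 and KIF23 were -1.86 and -1.97. KIF18B (-1.86), KIF14 (which acts with CIT in cytokinesis, -1.35) and KIF20B (-1.05) had adjusted p-values of 0.275 to 0.321 in edgeR's test. KIF18A, which dampens chromosome movements at the spindle equator, had the smallest difference of the kinesins, with 9.36 and 2.39 CPM in high G0/G1 libraries, against 13.5 and 9.71 CPM in low G0/G1 libraries. High replicate 1 and low replicate 2 were almost level in KIF18A, and the log2 fold change was -0.98 ± 0.68 (adjusted p 0.448 in edgeR and 0.433 in DESeq2).

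The 6 cytokinesis genes had a median log2 fold change of -1.65. At an unadjusted p under 0.05, 2 of the 6 were lower, where 10.8% of all genes were. DESeq2 called the same 2 (4.85% of all genes lower), PRC1 and RACGAP1. PRC1, which cross-links the antiparallel microtubules of the central spindle, had 73.4 and 24.4 CPM in high G0/G1 libraries, against 150 and 165 CPM in low G0/G1 libraries. Its log2 fold change was -1.69 ± 0.53, with adjusted p-values of 0.196 (edgeR) and 0.026 (DESeq2). RACGAP1, the partner of KIF23, had 86.0 and 19.4 CPM in high G0/G1 libraries, against 190.3 and 190.1 CPM in low G0/G1 libraries. The low libraries were level in RACGAP1, and the log2 fold change was -1.85 ± 0.69 (adjusted p 0.224 in edgeR and 0.0446 in DESeq2). ANLN, a scaffold of the contractile ring, had 30.0 and 7.16 CPM in high G0/G1 libraries, against 55.3 and 58.1 CPM in low G0/G1 libraries, a log2 fold change of -1.61 ± 0.66 (adjusted p 0.252 in edgeR and 0.0944 in DESeq2). CIT, citron kinase of the midbody, had 36.6 and 5.30 CPM in high G0/G1 libraries, against 79.9 and 78.3 CPM in low G0/G1 libraries, a log2 fold change of -1.92 ± 0.85 (adjusted p 0.276 in edgeR and 0.0917 in DESeq2). ECT2, the exchange factor that activates RhoA at the cell equator, had a log2 fold change of -1.26 and an adjusted p of 0.307 in edgeR's test. CEP55, which brings the abscission machinery to the midbody (chromosome 14, 104957256 to 104980690), had 21.5 and 5.48 CPM in high G0/G1 libraries, against 30.1 and 20.6 CPM in low G0/G1 libraries. High replicate 1 lay between the low libraries, so CEP55 was the gene of the 38 whose groups overlapped. Its log2 fold change was -0.91 ± 0.66, with adjusted p-values of 0.467 (edgeR) and 0.448 (DESeq2).

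In the 38 genes the high libraries differed from each other more than the low libraries did. High replicate 2 was below high replicate 1 in all 38 genes, by a median of 2.17 on the log2 scale. The opposite order, high replicate 1 below high replicate 2, held in 47.0% of all genes tested. The difference, high replicate 2 minus high replicate 1, ran from -3.28 in CKAP2 to -0.63 in CKAP5. Low replicate 1 minus low replicate 2 had a median of 0.09 and ran from -0.51 to 0.55. Against the mean of the low libraries, high replicate 1 had a median of -1.13 and high replicate 2 a median of -3.37. Shares of the low mean ran in high replicate 1 from 28.7% (PLK1) to 85% (CEP55), and in high replicate 2 from 4.79% (CKAP2L) to 40.4% (SASS6). In 25 genes the libraries ran in the order high replicate 2, high replicate 1, low replicate 2, low replicate 1, in 12 genes the low libraries stood the other way round, and CEP55 had an order of its own.

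The make-up of the 38 genes also differed in high replicate 2. CKAP5 made up 9.75% and 23.6% of the counts of the 38 genes in high G0/G1 libraries, against 8.04% and 7.55% in low G0/G1 libraries. SASS6 made up 2.73% and 5.45% in high G0/G1 libraries, against 1.74% and 1.81% in low G0/G1 libraries. Across the 38 genes the log2 fold change had a Spearman rho of -0.09 and a Pearson r of -0.14 with average log2 CPM, a description of genes that share the same 4 libraries. CPM is not corrected for transcript length, so a CPM value compares libraries for 1 gene and says nothing of levels between genes.

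**Figure D3:**
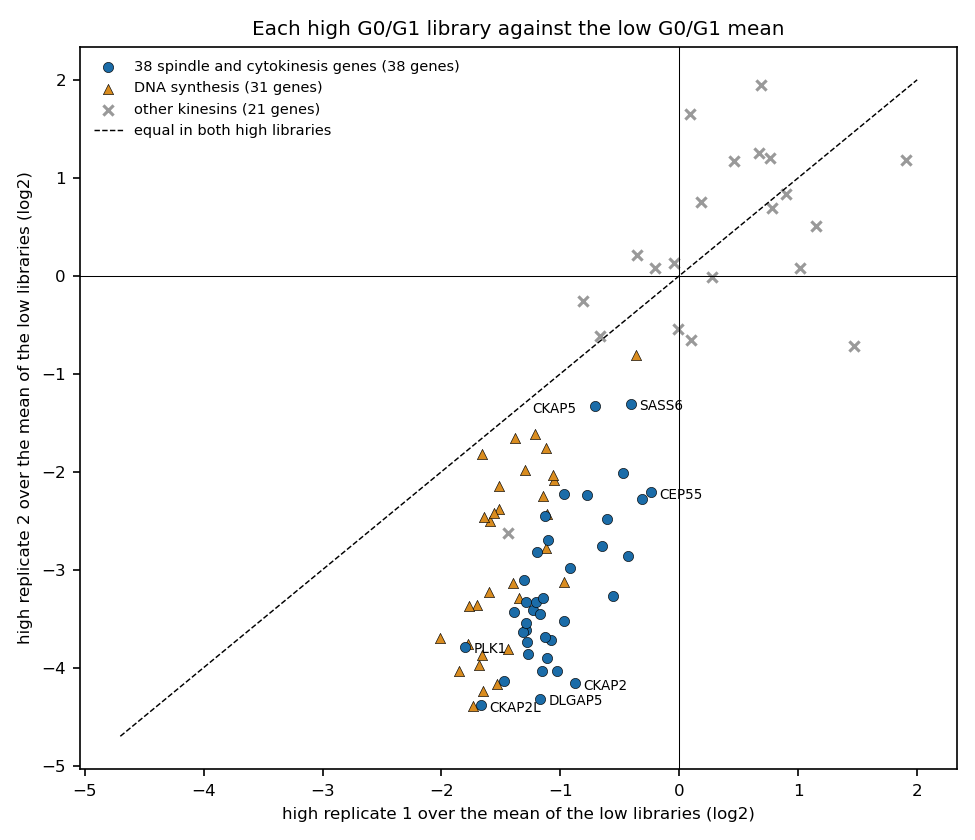
Log2 ratio of high replicate 1 (horizontal) and high replicate 2 (vertical) to the mean of the low libraries, with 1 point per gene for the 38 genes, 31 DNA synthesis genes and 21 other kinesins. The 38 genes lie below the dashed line of equal ratios, with medians of -1.13 on the horizontal and -3.37 on the vertical axis.

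The 31 genes of DNA synthesis and the 26 of the centromere and kinetochore show how other parts of the division programme stood in the same libraries. Every gene of both lists had a lower estimate in the high group. The median log2 fold change was -1.97 for DNA synthesis and -1.79 for the centromere and kinetochore. At an unadjusted edgeR p under 0.05, 29 DNA synthesis genes and 13 centromere genes were lower, where 10.8% of all genes were. DESeq2 called 29 DNA synthesis genes and 10 centromere genes lower, where it called 4.85% of all genes lower. FEN1, the flap endonuclease of lagging-strand synthesis, had 28.6 and 25.7 CPM in high G0/G1 libraries, against 96.4 and 84.4 CPM in low G0/G1 libraries, and MCM7, of the replicative helicase, had 139.9 and 116 CPM in high G0/G1 libraries, against 395 and 336 CPM in low G0/G1 libraries. In FEN1 and MCM7 the high libraries lay close together. The median DNA synthesis gene stood at -1.52 (high replicate 1) and -2.78 (high replicate 2), relative to the low mean on the log2 scale, and the median centromere gene at -1.03 (high replicate 1) and -3.42 (high replicate 2). The summed CPM of the 38 genes was 1.21 and 0.728 times the DNA synthesis sum in high G0/G1 libraries, against 0.902 and 0.967 times in low G0/G1 libraries, so the high libraries lay on either side of the low ones. Relative to the centromere sum the ratios were 2.45 and 2.68 in high G0/G1 libraries, against 2.51 and 2.60 in low G0/G1 libraries.

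**Figure D4:**
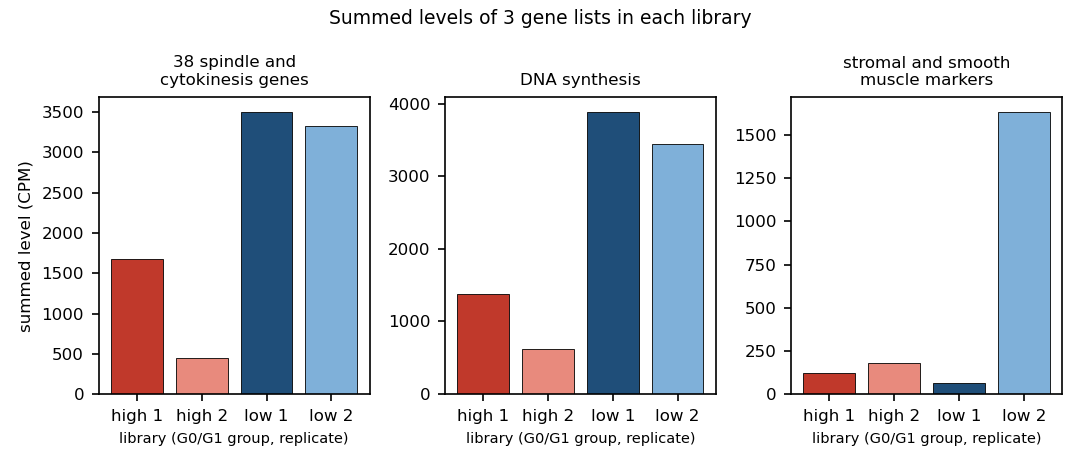
Summed CPM of the 38 genes, of 31 DNA synthesis genes and of 12 stromal and smooth muscle markers in each library (bars start at 0, each panel has its own axis). The 38 genes sum to 1676 and 449 CPM in high G0/G1 libraries, against 3507 and 3333 CPM in low G0/G1 libraries, and the stromal markers stand at 1637 CPM in low replicate 2.

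Kinesins outside the 38, which mostly carry cargo in interphase cells or serve cilia, did not share a direction. Of the 21 tested, 7 had lower and 14 higher estimates in the high group, and the median was 0.62. At an unadjusted p under 0.05, 2 of the 21 were lower, where 10.8% of all genes were, and 3 were higher, where 9.92% of all genes were, so these counts lie near the background. KIF24, which acts at centrioles, had 6.71 and 2.95 CPM in high G0/G1 libraries, against 18.5 and 18.0 CPM in low G0/G1 libraries (log2 fold change -1.91, adjusted p 0.169 in edgeR and 0.006 in DESeq2). KIF13B had 94.7 and 129 CPM in high G0/G1 libraries, against 66.2 and 45.6 CPM in low G0/G1 libraries (log2 fold change 1.0, adjusted p 0.182 in edgeR and 0.0536 in DESeq2). KIF27 had 16.1 and 9.72 CPM in high G0/G1 libraries, against 5.65 and 2.95 CPM in low G0/G1 libraries (log2 fold change 1.59, adjusted p 0.195 in edgeR and 0.0378 in DESeq2). KIF1C had a log2 fold change of -0.64, with both high libraries below both low libraries, as in 29.8% of all genes tested.

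The 13 other polo-like, Aurora and NIMA-related kinases tested had a median of -0.17, and 1 of them, AURKB, was lower at an unadjusted p under 0.05, where 10.8% of all genes were, so the count is no higher than the background. AURKB, the kinase of the chromosomal passenger complex, had 33.04 and 8.00 CPM in high G0/G1 libraries, against 102 and 86.6 CPM in low G0/G1 libraries (log2 fold change -2.20, adjusted p 0.192 in edgeR and 0.0111 in DESeq2). NEK7 had a log2 fold change of 0.45, NEK6 of -1.12 and PLK3 of -0.86, with unadjusted p-values of 0.0999, 0.15 and 0.165 in edgeR's test.

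Of 30 centrosome and centriole structure genes, 21 had lower and 9 higher estimates, with a median of -0.53, and 11 were lower (10.8% of all genes) and 0 higher (9.92% of all genes) at an unadjusted p under 0.05. PCNT, pericentrin, which scaffolds the pericentriolar material, had 55.3 and 33.5 CPM in high G0/G1 libraries, against 93.5 and 104 CPM in low G0/G1 libraries (log2 fold change -1.16, adjusted p 0.173 in edgeR and 0.0266 in DESeq2). HYLS1, CEP85 and CENPJ, a centriole elongation factor, had log2 fold changes of -1.56, -1.57 and -1.57, each with an adjusted p under 0.05 in DESeq2 and from 0.175 to 0.191 in edgeR. Estimates of the 30 genes ran from -2.19 in POC1A to 0.615 in CEP295. The 15 genes of the gamma-tubulin ring and augmin, which nucleate microtubules and branch them inside the spindle, all had lower estimates, with a median of -0.74. At an unadjusted p under 0.05, 6 of the 15 were lower, where 10.8% of all genes were. HAUS5, an augmin subunit, had 23.5 and 13.6 CPM in high G0/G1 libraries, against 62.2 and 58.5 CPM in low G0/G1 libraries (log2 fold change -1.70, adjusted p 0.151 in edgeR and 0.000769 in DESeq2). HAUS6, HAUS3 and HAUS1 had log2 fold changes of -1.40, -1.17 and -1.66.

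Tubulins, the building blocks of the spindle and of interphase microtubules, had lower estimates in 8 of 10 tested genes, with a median of -1.11. At an unadjusted p under 0.05, 5 of the 10 were lower, where 10.8% of all genes were. TUBB had 1201 and 797 CPM in high G0/G1 libraries, against 3205 and 2889 CPM in low G0/G1 libraries (log2 fold change -1.61, adjusted p 0.151 in edgeR and 0.000114 in DESeq2). TUBA1B had 592 and 315 CPM in high G0/G1 libraries, against 1399 and 1234 CPM in low G0/G1 libraries (log2 fold change -1.54, adjusted p 0.169 in edgeR and 0.00399 in DESeq2). TUBB4B and TUBD1 had log2 fold changes of -1.40 and -1.32. Some tubulin genes are near-identical in sequence, so reads could be split between those genes in a way that the sources do not state.

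Genes that position the spindle or follow microtubule plus ends were 7 lower and 13 higher of 20, with a median of 0.12. NDE1, a dynein regulator, had 48.7 and 41.8 CPM in high G0/G1 libraries, against 101.7 and 101.1 CPM in low G0/G1 libraries (log2 fold change -1.16, adjusted p 0.142 in edgeR and 0.00137 in DESeq2). STMN1, which sequesters tubulin, had a log2 fold change of -0.80. TACC1 and TACC2, relatives of TACC3, stood the other way. TACC1 had 75.8 and 66.2 CPM in high G0/G1 libraries, against 31.8 and 29.9 CPM in low G0/G1 libraries (log2 fold change 1.20, adjusted p 0.142 in edgeR and 0.000683 in DESeq2). TACC2 had 17.5 and 72.0 CPM in high G0/G1 libraries, against 4.52 and 11.0 CPM in low G0/G1 libraries (log2 fold change 2.53, adjusted p 0.196 in edgeR and 0.00881 in DESeq2).

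The 18 genes tested of septins, myosin II, formins and linked factors (RHOA, ROCK1, ROCK2, ARF6 and SHCBP1) mostly also serve interphase cells. They had a median of -0.10, with 11 lower and 7 higher. The lowest estimates were those of the formin DIAPH3 (-1.80) and of SHCBP1 (-1.80). DIAPH3 had 20.6 and 1.12 CPM in high G0/G1 libraries, against 47.4 and 28.5 CPM in low G0/G1 libraries. SHCBP1 had 42.4 and 8.07 CPM in high G0/G1 libraries, against 106 and 69.1 CPM in low G0/G1 libraries. DESeq2 called neither (adjusted p 0.273 and 0.0899). SEPT9 had 24.5 and 31.0 CPM in high G0/G1 libraries, against 62.7 and 78.4 CPM in low G0/G1 libraries (log2 fold change -1.34, adjusted p 0.148 in edgeR and 0.00178 in DESeq2), and SEPT8 had a log2 fold change of -1.02. DIAPH1, a formin that RhoA activates, had 130.2 and 215 CPM in high G0/G1 libraries, against 85.3 and 58.5 CPM in low G0/G1 libraries (log2 fold change 1.26, adjusted p 0.176 in edgeR and 0.0237 in DESeq2). ROCK2, a kinase that RhoA activates, had a log2 fold change of 0.73. ESCRT proteins sort endosomal cargo and also act in abscission at the midbody, where CEP55 helps to bring them. The 18 ESCRT and abscission genes had a median of 0.20, with 6 lower and 12 higher estimates. At an unadjusted p under 0.05, 0 were lower and 1 was higher, where 9.92% of all genes were higher, so the count lies under the background. That gene, CHMP1B, had 94.6 and 121 CPM in high G0/G1 libraries, against 58.9 and 60.1 CPM in low G0/G1 libraries (log2 fold change 0.86, adjusted p 0.171 in edgeR and 0.0345 in DESeq2).

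**Figure D5:**
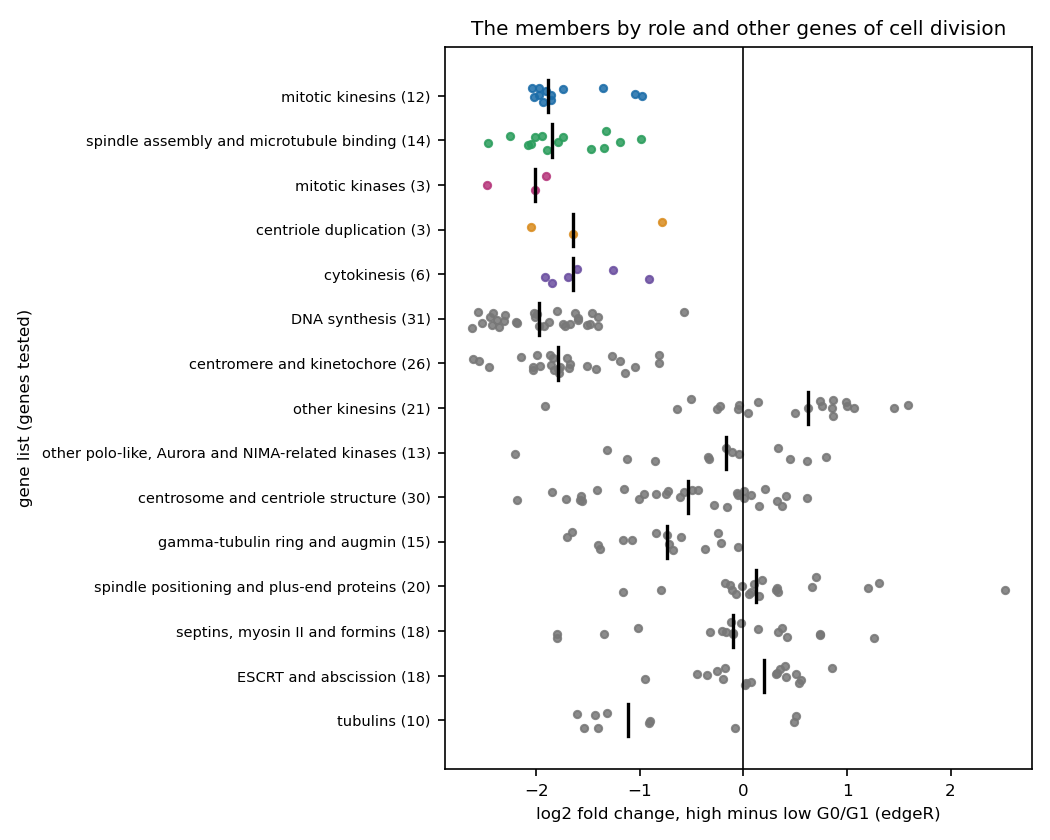
Log2 fold change of every tested gene, high minus low G0/G1 (edgeR), for the 5 roles of the 38 genes (coloured), for DNA synthesis, for the centromere and for 8 other lists (grey), with 1 point per gene and a bar at the median. Medians of the 5 roles lie between -2.01 and -1.64, and that of the other kinesins at 0.62.

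The annotated spans of 15 of the 38 genes overlap another gene, and the table used gives no strand, so reads could be shared there. The overlapping genes had at most 35 counts in any library beside PLK1, DLGAP5, CKAP2, CIT and PRC1, where LOC110261561 had 5 and 8 counts in high G0/G1 libraries, against 27 and 26 counts in low G0/G1 libraries (log2 fold change -1.94). KIF23 overlaps LOC106509080, with 31 and 16 counts in high G0/G1 libraries, against 89 and 55 counts in low G0/G1 libraries (log2 fold change -1.55). KIF20A overlaps CDC23 (log2 fold change -1.84), NUSAP1 overlaps OIP5 (-1.69) and PSRC1 overlaps CELSR2 (-1.32), all with lower estimates in the high group. SASS6, the gene with the smallest estimate, overlaps TRMT13 (0.54) and MFSD14A (0.52), which had higher estimates. MFSD14A had 6506 and 4460 counts in high G0/G1 libraries, against 4278 and 3668 counts in the low libraries. AURKA overlaps CSTF1 (-0.34), TACC3 overlaps TMEM129 (-0.39), HMMR overlaps NUDCD2 (-0.72) and KIF2C overlaps C6H1orf228 (1.28). KIF18A, the kinesin with the smallest difference, overlaps METTL15 (-0.23), which had 106 and 88 counts in high G0/G1 libraries, against 119 and 117 counts in low G0/G1 libraries. The part of shared reads in these values was not tested.

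The size of the difference moved with the high library used. The median over the 38 genes was -1.13 without high replicate 2 and -3.38 without high replicate 1. In such fits the lone library of a group is assumed to vary like those of the other group. Without low replicate 2, the library with the high stromal sum and the high CYP17A1, INSL3 and STAR levels, it was -1.88, and without low replicate 1 it was -1.78. Without high replicate 1, edgeR's quasi-likelihood test called 36 of the 38 lower at an adjusted p under 0.05, where it called 3.92% of all genes lower, and the exceptions were KIF18A (adjusted p 0.0655) and CKAP5 (0.0595). Without each of the other libraries, high replicate 2, low replicate 1 or low replicate 2, edgeR called 0 of the 38 and 0% of all genes lower. DESeq2 called all 38 without high replicate 1 (8.04% of all genes lower) and 19 without high replicate 2 (2.97%). It called PLK1 alone of the 38 without low replicate 1 (adjusted p 0.0483, 0.687% of all genes lower) and without low replicate 2 (0.0229, 0.814%). At an unadjusted p under 0.05, edgeR's test had 38 of the 38 lower without high replicate 1 (15.2% of all genes), 31 (8.6%) when high replicate 2 was left out, 8 (4.81%) when low replicate 1 was and 14 (5.36%) when low replicate 2 was. With all 4 libraries the number was 32 with DESeq2 (11.3% of all genes), 33 with limma-voom (11.9%), 28 with no low-count filter (8.28%), 20 with RLE scaling (10.1%) and 21 with upper quartile scaling (10.7%).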

How the data were processed

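RNA was extracted with Trizol, libraries were made from RNA with an integrity number above 8, and reads were aligned with HISAT2 to Sscrofa11.1, per the labels and the submitters' processing notes. The authors deposited 1 table of whole-number counts per gene symbol. The sources used here do not give the counter, the annotation release or the strand setting. Replicate numbers follow the listing of the samples and pair nothing.

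The 38 genes and all lists were chosen with earlier results of these data known. High and low libraries were compared in R 4.3.3 by edgeR 4.0.16 (filterByExpr at minimum count 10 and minimum total 15, TMM scaling, estimateDisp, glmQLFit, glmQLFTest), without covariates. P-values were adjusted by the Benjamini-Hochberg method over the 14352 genes tested, of 20394 with a count. Residual degrees of freedom were 2 and prior ones 3.2, with a common biological coefficient of variation of 0.371. An exact permutation test of 2 against 2 libraries cannot go below p = 0.333 and was not used. Standard errors divide the size of the fold change by the square root of F. DESeq2 1.42.0 (no independent filtering), limma-voom 3.58.1, other scalings, no filter and leaving out each library were alternatives. The scripts were tested on simulated counts.

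Genes were named by rule. For each role these are the 4 with the smallest p, the highest mean CPM (used only to choose a gene) and the largest and smallest absolute fold change. For each other list they are up to 4 of smallest p whose average log2 CPM is at least 1. Other named genes of the 38, the overlapping genes and the library values quoted for them were chosen after their values were seen. The same holds for INHA, CYP19A3, HSD17B1, STAR, POC1A, CEP295, DIAPH3 and SHCBP1 and their values. All 38 symbols matched RefSeq (Sscrofa11.1), which gave the coordinates. Of the listed genes outside the 38, 14 have no row in the table used. No sequence is shown, since none was used here.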

Additional observations from a re-analysis of the deposited data

How the results depend on the processing

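The median over the 38 genes stayed negative under every alternative run, at -1.84 with RLE scaling, -1.86 with upper quartile scaling, -1.86 with no filter, -1.90 with scaling by the counts outside the 38 genes (chosen after seeing the data) and -2.27 with limma-voom. Leaving out each library in turn gave medians from -3.38 to -1.13. The number of the 38 lower at an adjusted p under 0.05 was 0 with edgeR's quasi-likelihood test, 18 with DESeq2 and 0 to 36 over the fits that leave out a library, and DESeq2 called 1 to 38 in such fits (chosen after seeing the data). At an unadjusted p under 0.05 the number was 20 in the edgeR test (10.8% of all genes lower), 28 with no filter (8.28%), 32 with DESeq2 (11.3%), 33 with limma-voom (11.9%) and 8 to 38 without each library (4.81% to 15.2%). The cause of these differences was not tested. The number with both high libraries below both low libraries was 37 under each scaling, and it was not recomputed for the filter, DESeq2 or limma-voom, which it does not use. No estimate of the 38 genes reversed in the edgeR and limma-voom fits or in DESeq2 with all 4 libraries, the scaling by other genes included.

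No paired analysis was possible because the labels give no replicate numbers, and the letter W that 1 title of each group carries is not explained. With 2 libraries a group, single-gene estimates carry standard errors of 0.28 to 0.98 on the log2 scale. Depth limits little here, since the lowest count of any of the 38 genes in a library was 39.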
